A study of Mus musculus with 13 samples.

Results

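Cytochrome P450 families 1 to 4 are the haem enzymes that oxidise foreign chemicals, steroids, retinoids and fatty acids. Their genes were taken as all genes in the array's annotation whose symbol is Cyp followed by a family number from 1 to 4, a subfamily letter and a number. This gave 69 genes of the 19934 with a probe set that reads a single gene, and each of the 69 had 1 such probe set. Of these, 29 had a log2 intensity above 5 on at least 3 of the 13 arrays, as did 15875 of all genes. The results below concern those 29.

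The arrays measured total RNA of epithelium that was freed with dispase from the esophagus and forestomach of mice on a mixed C57Bl/6 and 129 background. Every animal carried L2-Cre, controls included; as background, the L2 promoter comes from Epstein-Barr virus and drives the recombinase in stratified squamous epithelium. The first group was Cre/p120 flox/flox forestomach mass (animals 412, 426 and 510) and the second was Cre/p120 +/+ forestomach, called control forestomach (animals 214, 216 and 217). The third group was Cre/p120 flox/flox esophagus (animals 193, 307, 313 and 335) and the fourth was Cre/p120 +/+ esophagus, called control esophagus (again animals 214, 216 and 217). The samples thus came from 10 animals, and their ages were not given in the sources used here. All flox/flox forestomach samples were masses, so genotype and the formation of a mass cannot be told apart.

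P450 enzymes of these families sit in the membrane of the endoplasmic reticulum and draw electrons from the reductase Por and from cytochrome b5. Families 1 to 3 are best known from the liver, where receptors for foreign chemicals such as Ahr, Nr1i2 and Nr1i3 switch them on, while family 4 adds hydroxyl groups to the ends of fatty acids. In squamous epithelium several members act on lipids: they make epoxides of arachidonic acid or the long hydroxy acids of the water barrier.

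The gene for p120-catenin, Ctnnd1, had log2 intensities of 9.51 to 9.91 in the masses, against 10.14 to 10.40 in control forestomach (log2 difference -0.56, SE 0.12, limma adjusted p = 0.0145). In flox/flox esophagus it had 9.95 to 10.13, against 10.21 to 10.50 in control esophagus (-0.29, SE 0.11, adjusted p = 0.637). Which exons its probe set reads was not analysed here. The mean of 10 squamous markers, among them keratins 5, 14, 4 and 13, was 11.92 to 12.33 on every array. Not every marker in that mean was high: Ivl averaged 7.41 in masses and 8.11 in control forestomach. Its averages were 5.60 in flox/flox esophagus and 5.62 in control esophagus. Ivl and Sprr1a were called higher in control forestomach than in control esophagus. Some arrays also carried markers of other cells. Mass 426 had a mean of 11.83 over 9 of 10 listed markers of glandular stomach, against 5.33 to 5.90 on the other 12 arrays. Skeletal muscle markers (10 of 10 listed) averaged 7.83 and 9.42 in flox/flox esophagus 307 and 335 and 8.07 in control esophagus 214, against 5.39 to 5.79 on the other 10 arrays. Fewer cells of a type and less RNA per cell cannot be told apart in such samples. Where a member's call in the masses turned on mass 426, its value without that array is given. Other calls that turned on 1 of these 4 arrays are given in part. For genes outside the family no such values are given.

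Among the 40 genes under the level limit were 10 of 13 Cyp2c genes, 5 of 6 Cyp3a genes and all 5 Cyp4a genes, the fatty acid hydroxylases that Ppara induces in liver. The highest value of each of the 40 lay between 3.01 and 6.05 (median 4.17), and 35 were not above 5 on any array. No member of Cyp2a, Cyp2g, Cyp2r, Cyp2t, Cyp4a or Cyp4x passed, whereas 7 of 9 Cyp4f genes and 5 of 10 Cyp2d genes did. A probe set that reads both Cyp2a5 and Cyp2a4, and so was left out of the members, did pass, with values up to 8.35. Just outside the limit, by the third highest array, lay Cyp2b9 and Cyp2c37 at 4.91 and Cyp4f14 at 4.98. Just inside lay Cyp4f37 at 5.03, Cyp2b23 at 5.11 and Cyp4f15 at 5.13. Hepatocyte markers had a mean over 8 of 9 listed genes of 4.66 to 5.88. Albumin (Alb) was between 3.602 and 3.995 on every array, while Apoa1 and Apob reached 9.93 and 7.51 in mass 426. Cyp2r1, the vitamin D 25-hydroxylase, stayed out although it had 4.36, 6.05 and 5.42 in control forestomach 214, 216 and 217. Its highest value elsewhere was 4.58, in a mass.

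In the masses 6 of the 29 genes were lower than in control forestomach and none was higher. They were Cyp4b1, Cyp3a13, Cyp2b19, Cyp2f2, Cyp4f39 and Cyp1a1, with falls of 1.74-fold to 4.72-fold. The 6 were 20.7% of the members, against 10.7% of all 15875 genes called in either direction, 8.4% called lower and 2.31% called higher (limma on log2 intensity, Benjamini-Hochberg adjusted p under 0.05). An unadjusted p under 0.05 was found for 12 members, and for 24.8% of all genes. The median member differed by 0.01, as did the median of all genes. Every mass lay below every control forestomach for 9 members (31%, against 17.5% of all genes) and above for 1 member (3.45%, against 10.3%). Without mass 426, 10 members were called, where 11.6% of all genes were: the same 6, Cyp2s1, Cyp2j6 and Cyp4f13 as lower, and Cyp2b10 as higher. A fit of these groups alone called 4 members and 2.85% of all genes: Cyp4b1, Cyp3a13, Cyp2b19 and Cyp1b1.

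Markers of other cells differed between these groups as well. Fibroblast markers (8 of 8 listed) averaged 8.89, 9.23 and 7.45 in masses 412, 426 and 510, against 7.65, 6.84 and 6.79 in control forestomach 214, 216 and 217. Endothelial markers (7 of 7) averaged 7.25, 7.21 and 6.17 in the masses, against 6.04, 5.33 and 5.35 in control forestomach, and macrophage markers (8 of 9) 7.74, 7.18 and 6.98, against 6.45, 6.498 and 6.60. Squamous markers (10 of 10) averaged 12.31, 12.05 and 12.23 in the masses, against 12.33, 12.16 and 12.33 in control forestomach. Of these, the differentiation markers Krt4 (13.07 in masses, 13.63 in control forestomach) and Lor (12.55 in masses, 13.598 in control forestomach) were called lower, and Dsg3 (12.36 in masses, 10.99 in control forestomach) was called higher. None of these lists was at the bottom of the scale in either group, and their part in the falls was not tested.

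**Figure D1:**
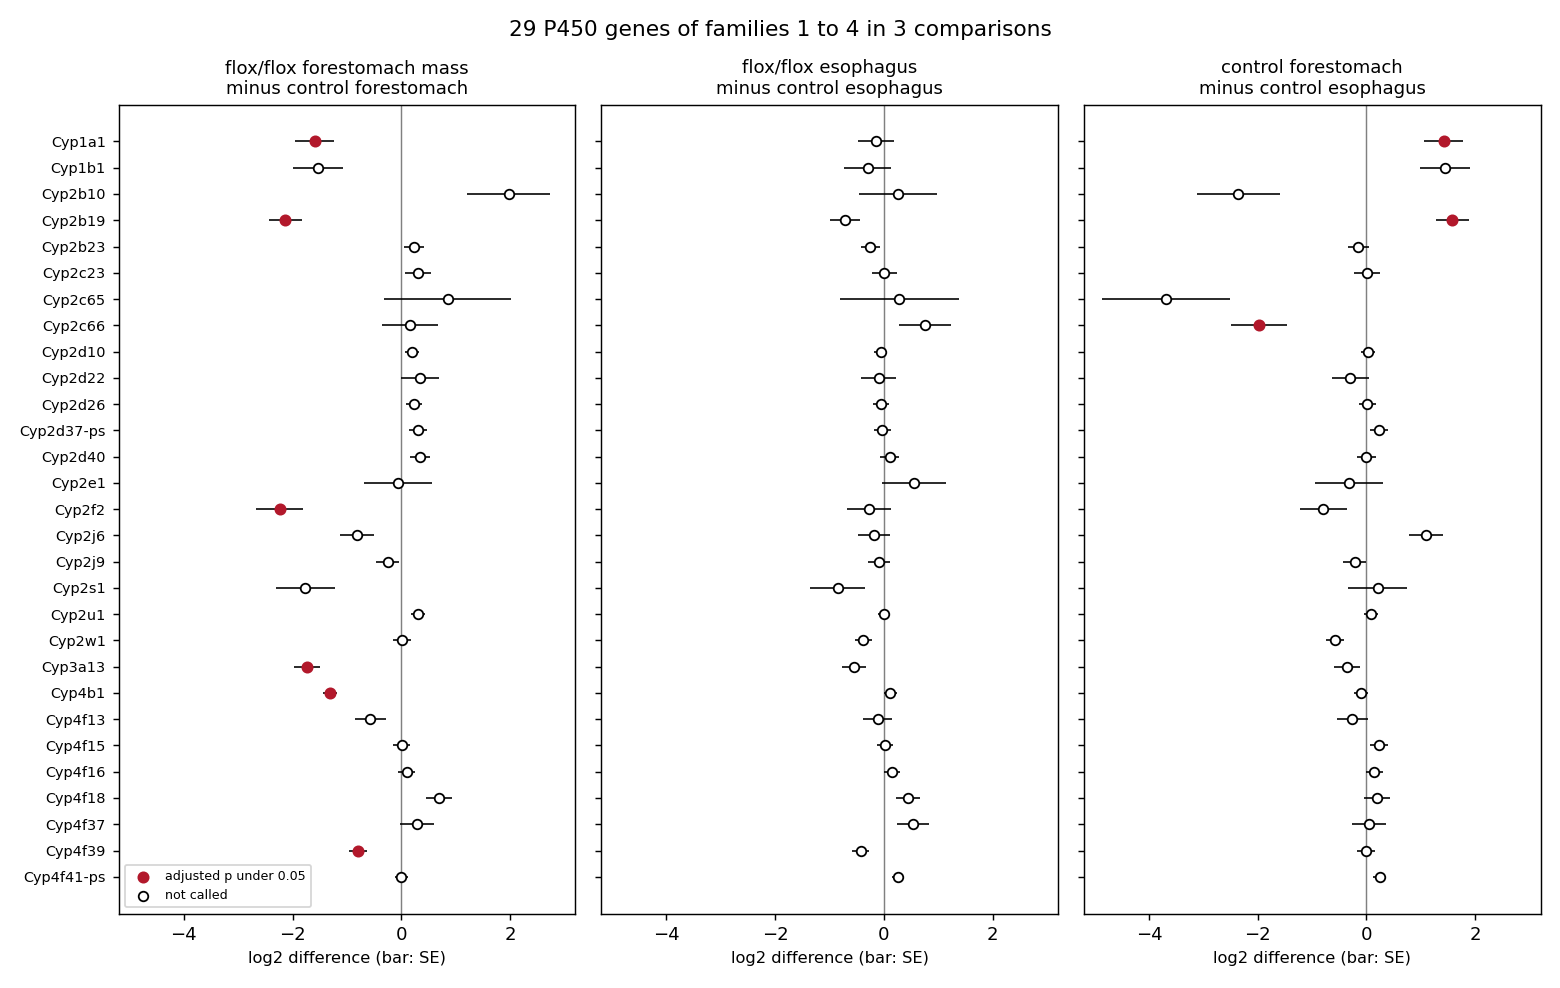
Log2 difference of group means with its SE (horizontal axis) for the 29 genes above the level limit in 3 comparisons; filled points have an adjusted p under 0.05. The masses show 6 filled points, all below 0, the flox/flox esophagus none, and control forestomach against control esophagus 3.

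In the esophagus no member was called between flox/flox and control, where only 2 of all genes were (0.0126%) and 1108 (6.98%) had an unadjusted p under 0.05. This was so for 5 members: Cyp4f39 (log2 difference -0.43), Cyp2b19 (-0.72), Cyp2w1 (-0.38), Cyp3a13 (-0.55) and Cyp4f41-ps (0.25), with limma adjusted p between 0.600 and 0.696. The median member differed by -0.05. A test of the difference between the 2 genotype comparisons called Cyp4b1 alone, against 0.139% of all genes, and at an unadjusted p under 0.05 it had 5 members, against 10.5% of all genes.

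Between the control tissues, 3 members were called, or 10.3% against 6.67% of all genes. Cyp2b19 and Cyp1a1 were higher in control forestomach (3.51% of all genes) and Cyp2c66 was lower there (3.16%). Both tissues were taken from the same 3 animals, and 8 members were called when the animal entered as a random block, which called 16.8% of all genes: these 3, Cyp1b1 and Cyp2j6 as higher, and Cyp2b10, Cyp2c65 and Cyp2w1 as lower. With the animal as a fixed block in the 6 control arrays, 9 were called, against 14.8% of all genes, the further gene being Cyp2f2. Without the 3 arrays high in muscle markers, which leaves 2 control esophagus arrays, 1 member was called, Cyp1b1, against 3.02% of all genes.

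**Figure D2:**
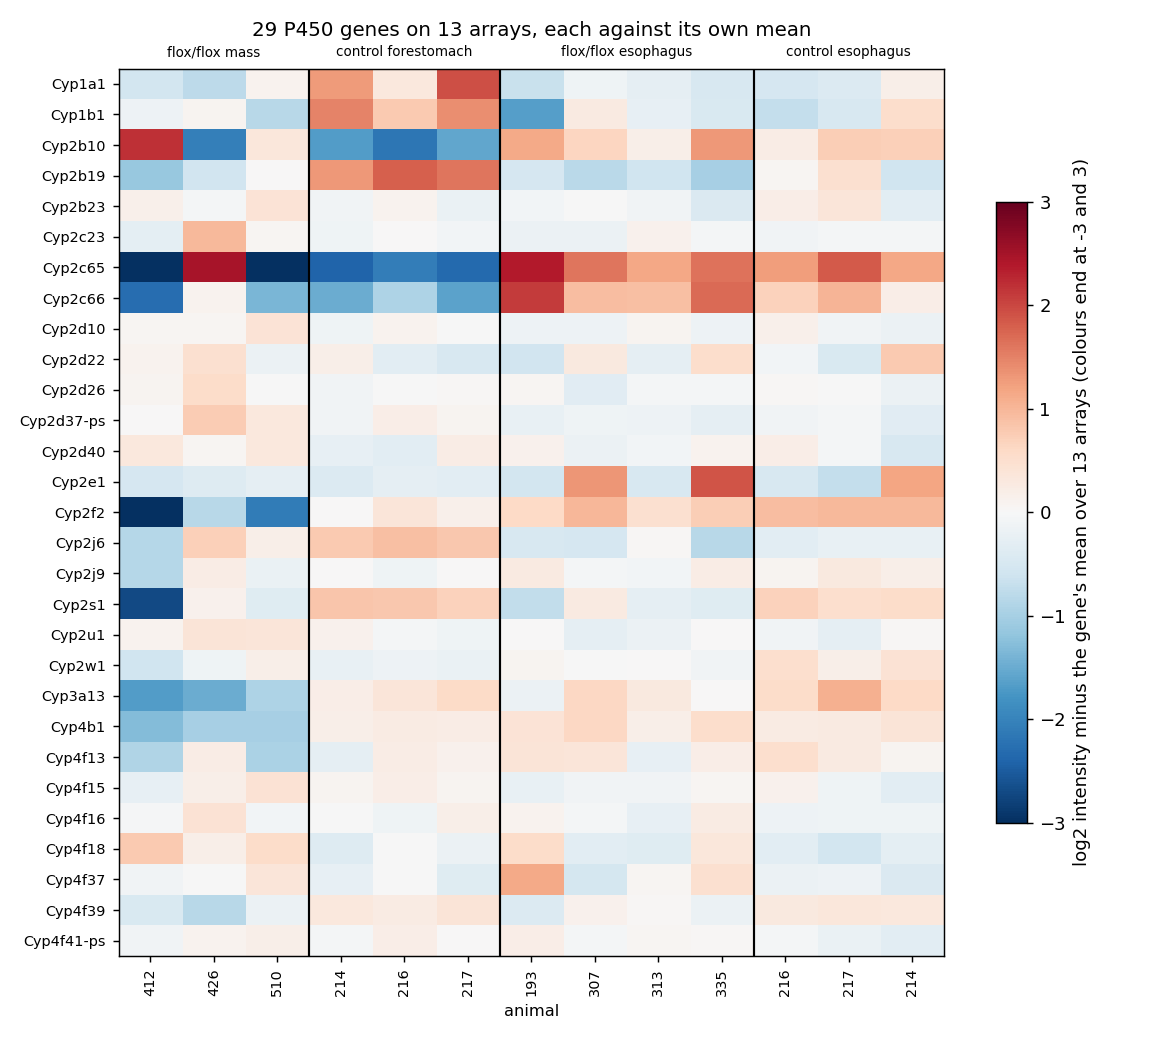
Log2 intensity of the 29 genes (rows) on the 13 arrays (columns, named by animal), each gene against its own mean over the arrays; red is above that mean and blue below. Cyp2c65 and Cyp2c66 are high in all 7 esophagus arrays, and mass 426 departs from masses 412 and 510 in Cyp2c65 and Cyp2b10.

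Family 1 holds the classic genes of the aryl hydrocarbon receptor Ahr, a sensor of aromatic pollutants and plant compounds. Both Cyp1a1, which oxidises polycyclic hydrocarbons, and Cyp1b1, which oxidises such hydrocarbons, oestradiol and retinoids, had their highest group mean in control forestomach. The 250 bases before each start site are shown because both genes are textbook targets of Ahr; capitals mark the core of its response element, searched as GCGTG and, on the other strand, CACGC. The first is chr9:57697363-57697612 on the plus strand and the second chr17:79715062-79715311 on the minus strand (RefSeq, GRCm38.p6).
Cyp1a1: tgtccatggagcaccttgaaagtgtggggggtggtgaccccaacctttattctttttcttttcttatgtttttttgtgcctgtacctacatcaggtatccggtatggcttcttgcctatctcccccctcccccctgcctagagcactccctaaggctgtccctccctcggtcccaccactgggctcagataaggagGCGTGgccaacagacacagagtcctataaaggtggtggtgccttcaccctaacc
Cyp1b1: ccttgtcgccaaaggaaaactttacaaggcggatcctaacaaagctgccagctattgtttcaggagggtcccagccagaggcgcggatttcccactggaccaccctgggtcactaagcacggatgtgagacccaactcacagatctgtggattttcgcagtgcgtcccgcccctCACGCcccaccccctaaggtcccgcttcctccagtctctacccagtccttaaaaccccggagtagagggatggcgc
Each held 1 match, starting at position -54 from the start site in Cyp1a1 and -76 in Cyp1b1. Such a match is common: 28.2% of 32851 mouse promoters of this length held one, as did 7 of the 24 members above the limit whose promoter was in the table. Sequence further upstream was not searched. In RefSeq the span of Cyp1a1 begins at 57687928, upstream of the start site used here.

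Cyp1a1 had log2 intensities of 4.83, 4.61 and 5.50 in masses 412, 426 and 510, against 6.67, 5.71 and 7.33 in control forestomach 214, 216 and 217. It had 4.72, 5.26, 5.13 and 4.90 in flox/flox esophagus, against 4.88, 4.99 and 5.56 in control esophagus (animals in the order 193, 307, 313 and 335, and 216, 217 and 214, as in all such lists). Control forestomach thus stood above the other groups, though animal 216 lay close to the highest array elsewhere. The gene was 3.01-fold lower in the masses (log2 difference -1.59, SE 0.36, limma adjusted p = 0.0167). Control forestomach was 2.68-fold higher than control esophagus (1.42, SE 0.36, adjusted p = 0.0356). Both calls were lost without control forestomach 214 or 217. The call in the masses was lost without mass 412 as well, with array weights and in a fit of those groups alone. The tissue call was lost too without control esophagus 216 or 217 or flox/flox esophagus 313 or 335, without the 3 muscle-high arrays, with quantile normalization and in a fit of those groups alone.

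Cyp1b1 had 7.28, 7.52 and 6.59 in the masses, against 8.92, 8.22 and 8.84 in control forestomach. Its values were 5.78, 7.71, 7.19 and 6.97 in flox/flox esophagus, against 6.71, 6.95 and 7.97 in control esophagus. The masses and control forestomach did not overlap, and the difference of -1.53 (SE 0.46) had an adjusted p of 0.0543, or 0.0354 without the 3 muscle-high arrays. Control forestomach was 1.45 above control esophagus (SE 0.46, adjusted p = 0.0874, or 0.0158 in the random block fit). Ahr itself differed by -0.00 in the masses (SE 0.16, adjusted p = 0.995) and by -0.41 in control forestomach against control esophagus (SE 0.16, adjusted p = 0.166).

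Cyp2b19 is the P450 of mouse keratinocytes, an epoxygenase of arachidonic acid found in skin. Its log2 intensities were 4.95, 5.51 and 6.11 in the masses, against 7.40, 7.88 and 7.70 in control forestomach. Those of flox/flox esophagus were 5.58, 5.29, 5.50 and 5.09, against 6.15, 6.59 and 5.51 in control esophagus. Control forestomach was above all other arrays. The masses were 4.39-fold lower (-2.13, SE 0.30, adjusted p = 0.00219), a call that held under every alternative tried. Control forestomach was 2.99-fold higher than control esophagus (1.58, SE 0.30, adjusted p = 0.00859), a call lost without the 3 muscle-high arrays (adjusted p = 0.0547).

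Cyp2b10, which phenobarbital induces through Nr1i3 in mouse liver, ran the other way. It had 10.66, 6.42 and 8.81 in the masses, against 6.78, 6.29 and 6.91 in control forestomach. In flox/flox esophagus the gene had 9.60, 9.10, 8.63 and 9.76, against 8.69, 9.20 and 9.17 in control esophagus. All esophagus arrays were above all control forestomach arrays, and masses 412 and 510 but not 426 were at or above esophagus level. The difference between masses and control forestomach was 1.97 (SE 0.76, adjusted p = 0.129), 3.08 without mass 426 (adjusted p = 0.00327) and 0.96 without mass 412 (adjusted p = 0.326). Control forestomach differed from control esophagus by -2.36 (SE 0.76, adjusted p = 0.0936, or 0.0186 in the random block fit). Cyp2b23 averaged 5.07 ± 0.24 in masses, 4.84 ± 0.16 in control forestomach, 4.74 ± 0.18 in flox/flox esophagus and 4.99 ± 0.36 in control esophagus (SD, n = 3, 3, 4 and 3, as for all group means).

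Cyp2b19 and Cyp2b10 lie in 1 cluster on chromosome 7. The 250 bases before their start sites are shown because the levels of the genes ran opposite ways in control tissues; capitals mark bases that are identical in an alignment of the pair. They are chr7:26756892-26757141 and chr7:25897408-25897657, both on the plus strand (RefSeq, GRCm38.p6).
Cyp2b19: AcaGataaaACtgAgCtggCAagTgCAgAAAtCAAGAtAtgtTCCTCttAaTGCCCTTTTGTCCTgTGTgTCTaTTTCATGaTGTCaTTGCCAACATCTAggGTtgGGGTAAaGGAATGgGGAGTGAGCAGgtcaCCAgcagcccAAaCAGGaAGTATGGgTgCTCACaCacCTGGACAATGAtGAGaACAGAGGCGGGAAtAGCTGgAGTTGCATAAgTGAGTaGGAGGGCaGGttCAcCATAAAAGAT
Cyp2b10: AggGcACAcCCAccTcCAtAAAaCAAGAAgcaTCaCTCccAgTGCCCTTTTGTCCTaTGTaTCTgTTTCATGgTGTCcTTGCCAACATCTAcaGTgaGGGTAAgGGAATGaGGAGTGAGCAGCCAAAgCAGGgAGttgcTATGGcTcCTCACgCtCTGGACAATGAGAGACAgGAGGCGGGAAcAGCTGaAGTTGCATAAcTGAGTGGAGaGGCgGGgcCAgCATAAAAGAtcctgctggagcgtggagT
Of 275 aligned columns, 186 were identical (67.6%). The median of the 10 pairs among 5 Cyp2b promoters was 65.1%, and 3 pairs were more alike.

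Cyp2c65 and Cyp2c66 belong to a subfamily that makes epoxides of arachidonic acid. Cyp2c65 had 4.21, 10.36 and 4.82 in masses 412, 426 and 510, against 5.47, 5.80 and 5.55 in control forestomach. In flox/flox esophagus it had 10.27, 9.48, 9.05 and 9.52, against 9.13, 9.71 and 9.05 in control esophagus. Mass 426 was thus at esophagus level and the other masses were below every control forestomach array. The mean difference of masses was 0.86 (SE 1.17, adjusted p = 0.718). It turned to -1.09 without mass 426 (adjusted p = 0.0521) and was 1.98 without mass 412. Control forestomach was 12.9-fold below control esophagus (-3.69, SE 1.17). Its adjusted p was 0.0877 in the fit of all arrays, 0.0174 in the random block fit and 2.99e-05 without mass 426, and it passed without mass 412 too.

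Cyp2c66 followed the same order in the controls. It had 5.55, 7.92 and 6.47 in the masses, against 6.34, 6.90 and 6.23 in control forestomach. In flox/flox esophagus it was at 9.93, 8.75, 8.72 and 9.52, against 8.53, 8.86 and 8.03 in control esophagus. Every esophagus array was above every forestomach array, mass 426 included. The masses differed by 0.16 (SE 0.51, adjusted p = 0.897), and by -0.48 without mass 426 (adjusted p = 0.517). Control forestomach was 3.95-fold lower than control esophagus (-1.98, SE 0.51, adjusted p = 0.0399). That call was lost when any 1 control array or flox/flox esophagus 335 was left out. It was lost too without the 3 muscle-high arrays, with quantile normalization, with a trended and robust variance and with sex as a covariate. Cyp2c23, another arachidonate epoxygenase, had 6.08 in mass 426 and 4.82 to 5.25 on the other 12 arrays, with group means of 5.36 ± 0.65 in masses, 5.05 ± 0.07 in control forestomach, 5.04 ± 0.15 in flox/flox esophagus and 5.03 ± 0.03 in control esophagus.

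**Figure D3:**
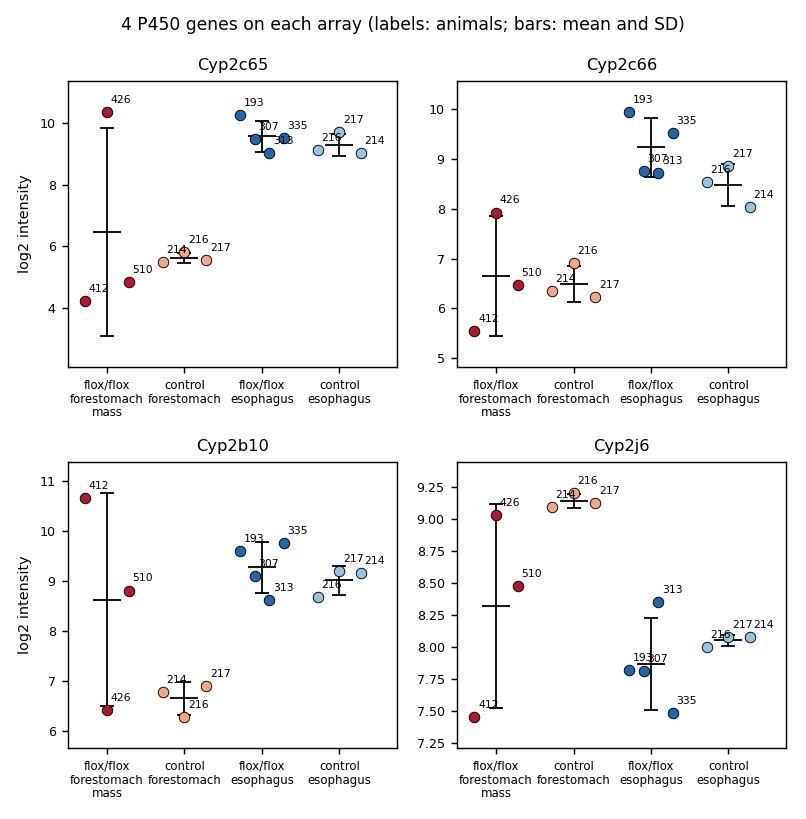
Log2 intensity of 4 genes (vertical axes) in the 4 groups, with each animal labelled and bars for mean and SD. Cyp2c65, Cyp2c66 and Cyp2b10 are higher in all esophagus arrays than in control forestomach, Cyp2j6 is lower, and mass 426 stands apart from masses 412 and 510 in Cyp2c65.

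Cyp2c65 and Cyp2c66 are neighbours on chromosome 19. The 250 bases before their start sites are shown because the genes share a pattern over the control arrays; capitals mark identical aligned bases. They are chr19:39060756-39061005 and chr19:39113648-39113897, both on the plus strand (RefSeq, GRCm38.p6).
Cyp2c65: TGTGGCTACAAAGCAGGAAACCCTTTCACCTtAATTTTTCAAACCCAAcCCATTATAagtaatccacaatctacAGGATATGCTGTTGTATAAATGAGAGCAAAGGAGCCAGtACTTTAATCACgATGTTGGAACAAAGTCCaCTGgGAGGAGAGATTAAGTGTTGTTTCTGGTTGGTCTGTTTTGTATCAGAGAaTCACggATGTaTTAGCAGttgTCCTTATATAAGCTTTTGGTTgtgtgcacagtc
Cyp2c66: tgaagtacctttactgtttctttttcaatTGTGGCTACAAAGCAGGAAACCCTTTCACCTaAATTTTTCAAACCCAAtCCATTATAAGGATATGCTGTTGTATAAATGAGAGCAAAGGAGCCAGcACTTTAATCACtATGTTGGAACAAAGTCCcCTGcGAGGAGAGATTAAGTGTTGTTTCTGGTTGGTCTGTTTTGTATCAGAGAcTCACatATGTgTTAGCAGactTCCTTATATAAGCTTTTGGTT
Of 279 aligned columns, 208 were identical (74.6%), against a median of 53.9% over the 55 pairs of 11 Cyp2c promoters, of which 2 were more alike. Whether the probe sets of Cyp2c65 and Cyp2c66 tell the 2 genes apart was not examined.

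Cyp2f2, which turns naphthalene into a toxic epoxide in the club cells of mouse lung, fell in the masses. It had 8.59, 11.04 and 9.76 in the masses, against 11.87, 12.22 and 12.01 in control forestomach. Its values in flox/flox esophagus were 12.46, 12.85, 12.34 and 12.60, against 12.80, 12.84 and 12.84 in control esophagus. The masses were below all other arrays and differed more among themselves than the arrays of any other group. The fall was 4.72-fold (-2.24, SE 0.43, adjusted p = 0.00829), with a difference of -2.86 without mass 426 and -1.63 without mass 412. A fit of only the masses and control forestomach, which does not borrow the smaller spread of the other groups, gave an adjusted p of 0.0734.

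Cyp2s1 is found in epithelia that face the outside, and its human counterpart oxidises retinoic acid. It had 8.396, 11.23 and 10.74 in the masses, against 11.93, 11.92 and 11.80 in control forestomach. In flox/flox esophagus it had 10.38, 11.38, 10.84 and 10.74, against 11.79, 11.60 and 11.65 in control esophagus. All 7 flox/flox arrays were below all 6 control arrays. The share of all genes that separate in this way is not given here. Each control animal gave both a forestomach and an esophagus array, so the 6 are not independent. The differences were -1.76 in the masses (SE 0.54, adjusted p = 0.0602) and -0.85 in the esophagus (SE 0.51, adjusted p = 0.826), neither of them called in the fit of all arrays. Without mass 426 the first was -2.32 (adjusted p = 0.0155), without mass 412 it was -0.90 (adjusted p = 0.0474), and without mass 510 it was -2.07 (adjusted p = 0.0446). Under 21 of 25 alternatives this difference in the masses was not called, with limma adjusted p up to 0.187.

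Cyp2j6, of an arachidonate epoxygenase subfamily, had 7.45, 9.03 and 8.47 in the masses, against 9.09, 9.20 and 9.13 in control forestomach. Flox/flox esophagus had 7.81, 7.81, 8.35 and 7.48, against 7.998, 8.08 and 8.08 in control esophagus. Control forestomach was above all other arrays, and mass 426 came close to it. The masses differed by -0.82 (SE 0.32, adjusted p = 0.126), by -1.18 without mass 426 (adjusted p = 0.0212) and by -0.39 without mass 412 (adjusted p = 0.304). Control forestomach was 1.09 above control esophagus (SE 0.32, adjusted p = 0.0630, and 0.0112 with the random block). Cyp2j9 averaged 5.83 ± 0.54 in masses, 6.07 ± 0.08 in control forestomach, 6.19 ± 0.18 in flox/flox esophagus and 6.28 ± 0.10 in control esophagus.

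Cyp2w1, known in humans from fetal gut and colon tumours, had 5.61, 6.07 and 6.39 in the masses, against 5.98, 6.05 and 6.00 in control forestomach. It had 6.30, 6.20, 6.23 and 6.11 in flox/flox esophagus, against 6.72, 6.40 and 6.65 in control esophagus. Control esophagus was the high group, and the difference of control forestomach from it was -0.58 (SE 0.16, adjusted p = 0.0551, and 0.00974 with the random block). Cyp2u1, a fatty acid hydroxylase, had 5.65, 5.93 and 5.91 in the masses, against 5.67, 5.48 and 5.41 in control forestomach. It had 5.55, 5.28, 5.38 and 5.55 in flox/flox esophagus, against 5.45, 5.29 and 5.57 in control esophagus. The difference in the masses was 0.31 (SE 0.12, adjusted p = 0.139).

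The 5 Cyp2d genes above the limit, of a large cluster of drug-oxidising enzymes on chromosome 15, differed little. Differences in the masses were 0.19 to 0.34, none of them called. Cyp2d37-ps, a pseudogene, had 6.12, 6.87 and 6.44 in the masses, against 6.01, 6.32 and 6.19 in control forestomach. It had 5.89, 5.98, 5.96 and 5.84 in flox/flox esophagus, against 6.01, 6.05 and 5.78 in control esophagus. Its highest array was mass 426. Cyp2d10 averaged 5.41 ± 0.21 in masses, 5.21 ± 0.11 in control forestomach, 5.12 ± 0.12 in flox/flox esophagus and 5.19 ± 0.18 in control esophagus. Cyp2d26 averaged 5.45 ± 0.29 in masses, 5.22 ± 0.08 in control forestomach, 5.15 ± 0.18 in flox/flox esophagus and 5.20 ± 0.12 in control esophagus. Cyp2d40 averaged 6.26 ± 0.15 in masses, 5.92 ± 0.29 in control forestomach, 6.02 ± 0.14 in flox/flox esophagus and 5.92 ± 0.34 in control esophagus. Probes may not tell Cyp2d genes of near-identical sequence apart.

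Cyp2e1, which oxidises ethanol, and Cyp2d22 were high on the esophagus arrays with high muscle and fibroblast markers. Cyp2e1 had 3.90, 4.01 and 4.15 in the masses, against 4.001, 4.15 and 4.09 in control forestomach. It had 3.85, 5.74, 3.94 and 6.31 in flox/flox esophagus, against 3.93, 3.70 and 5.59 in control esophagus. The 3 high arrays were flox/flox esophagus 307 and 335 and control esophagus 214, the arrays high in muscle markers. Fibroblast markers (8 of 8 listed) averaged 9.43, 9.90 and 10.73 there, against 6.66 to 6.87 on the other esophagus arrays. Cyp2d22 had 6.39, 6.62 and 6.87 on these arrays, against 5.51 to 6.01 on the other esophagus arrays. The part of these cells in either gene's level was not tested. Cyp2d22 averaged 6.22 ± 0.32 in masses, 5.88 ± 0.34 in control forestomach, 6.08 ± 0.51 in flox/flox esophagus and 6.17 ± 0.63 in control esophagus. No comparison called either gene.

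**Figure D4:**
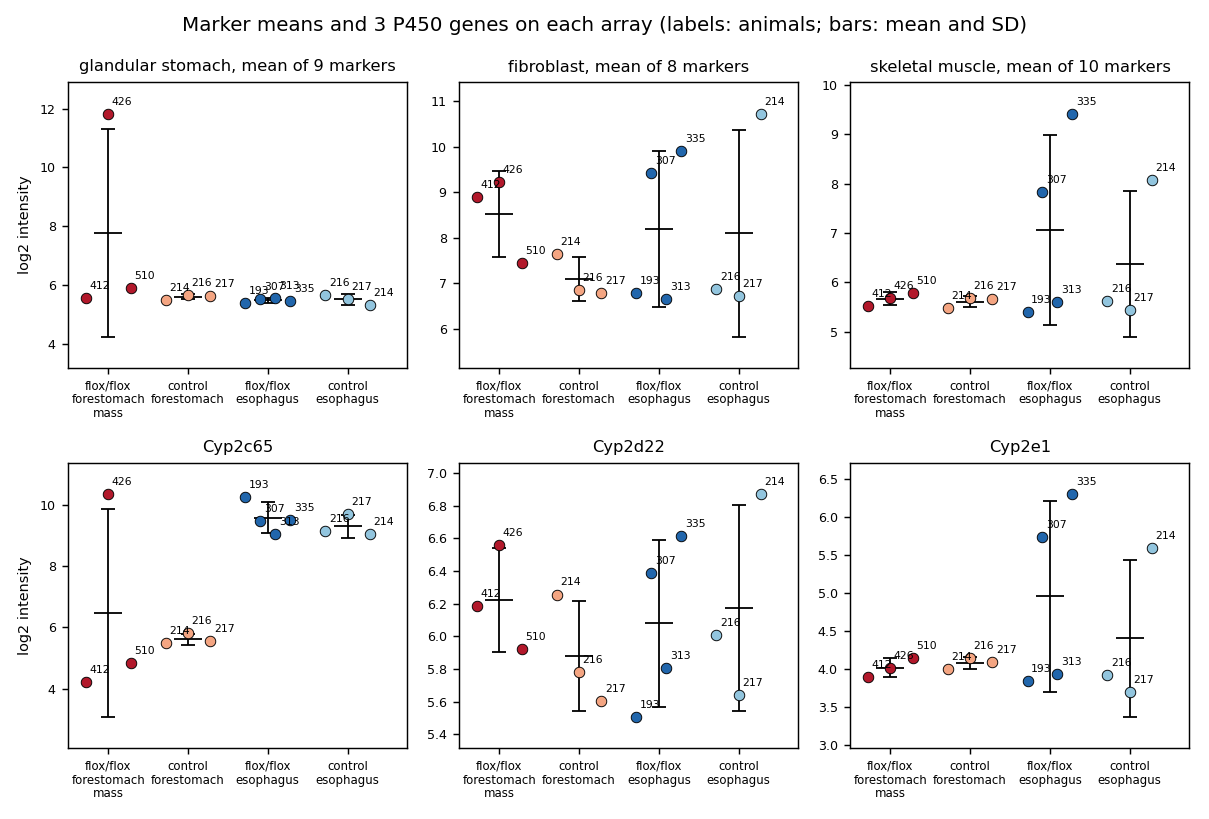
Mean log2 intensity of markers of glandular stomach, fibroblasts and skeletal muscle (upper row) and log2 intensity of Cyp2c65, Cyp2d22 and Cyp2e1 (lower row) on each array, labelled by animal, with bars for mean and SD. Mass 426 alone is high in glandular markers and, among forestomach arrays, in Cyp2c65, and flox/flox esophagus 307 and 335 with control esophagus 214 are the esophagus arrays high in muscle markers, Cyp2d22 and Cyp2e1.

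Cyp3a13, which occurs outside the liver unlike most of its subfamily, was the only Cyp3a gene above the limit. It had 6.55, 6.74 and 7.30 in the masses, against 8.41, 8.57 and 8.80 in control forestomach. Flox/flox esophagus had 8.05, 8.84, 8.51 and 8.24, against 8.78, 9.28 and 8.81 in control esophagus. The masses were below all other arrays. The fall was 3.32-fold (-1.73, SE 0.24, adjusted p = 0.00202) and held under every alternative tried. The esophagus difference was -0.55 (SE 0.22, adjusted p = 0.653).

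Cyp4b1, a fatty acid hydroxylase that activates lung toxins, fell evenly in the masses. It had 6.19, 6.51 and 6.51 in the masses, against 7.66, 7.75 and 7.72 in control forestomach. Flox/flox esophagus had 7.91, 8.11, 7.66 and 8.01, against 7.75, 7.78 and 7.89 in control esophagus. Each of the 10 other arrays was above each mass. The fall was 2.47-fold (-1.31, SE 0.13, adjusted p = 0.000418) and held under every alternative tried. The esophagus difference was 0.12 (SE 0.12), and the 2 genotype differences differed by -1.42 (SE 0.17, adjusted p = 0.00555). Without the 3 muscle-high arrays that adjusted p was 0.0931.

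Cyp4f39 is the mouse counterpart of human CYP4F22, which makes the very long hydroxy acids of skin ceramides. It had 10.66, 10.29 and 10.94 in the masses, against 11.42, 11.36 and 11.50 in control forestomach. Flox/flox esophagus had 10.69, 11.25, 11.15 and 10.94, against 11.40, 11.47 and 11.44 in control esophagus. All 7 flox/flox arrays were below all 6 control arrays. As for Cyp2s1, the share of all genes that separate in this way is not given, and the 6 control arrays are not independent. The fall in the masses was 1.74-fold (-0.80, SE 0.17, adjusted p = 0.0120, or 0.0638 in a fit of those groups alone). The esophagus difference was -0.43 (SE 0.16, adjusted p = 0.600) and was not called.

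The other Cyp4f genes, which hydroxylate leukotrienes and fatty acids, were not called in the masses in the fit of all arrays. Cyp4f18, which inactivates leukotriene B4 in mouse neutrophils, was above control forestomach in every mass (group means 5.72 and 5.03, difference 0.70, SE 0.24, adjusted p = 0.0904). It averaged 5.28 ± 0.47 in flox/flox esophagus and 4.83 ± 0.13 in control esophagus. Cyp4f13 averaged 6.79 ± 0.66 in masses, 7.37 ± 0.26 in control forestomach, 7.51 ± 0.30 in flox/flox esophagus and 7.62 ± 0.21 in control esophagus. It differed by -0.57 in the masses (SE 0.28, adjusted p = 0.242), by -0.95 without mass 426 (adjusted p = 0.0150), by -0.39 without mass 412 and by -0.38 without mass 510. The remaining 4 showed small differences in the masses. Cyp4f15 averaged 5.07 ± 0.34 in masses, 5.06 ± 0.07 in control forestomach, 4.85 ± 0.11 in flox/flox esophagus and 4.83 ± 0.22 in control esophagus. Cyp4f16 averaged 7.09 ± 0.28 in masses, 6.99 ± 0.15 in control forestomach, 6.99 ± 0.22 in flox/flox esophagus and 6.84 ± 0.02 in control esophagus. Cyp4f37 averaged 4.74 ± 0.26 in masses, 4.45 ± 0.18 in control forestomach, 4.95 ± 0.70 in flox/flox esophagus and 4.41 ± 0.15 in control esophagus. The pseudogene Cyp4f41-ps averaged 5.37 ± 0.15 in masses, 5.37 ± 0.13 in control forestomach, 5.38 ± 0.11 in flox/flox esophagus and 5.13 ± 0.13 in control esophagus. Cyp4f37 was highest in flox/flox esophagus 193, at 5.79, the array with the highest mean of T and NK cell markers (7.42 over 6 of 7 listed, against 5.07 to 5.93 elsewhere). The part of those cells was not tested.

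**Figure D5:**
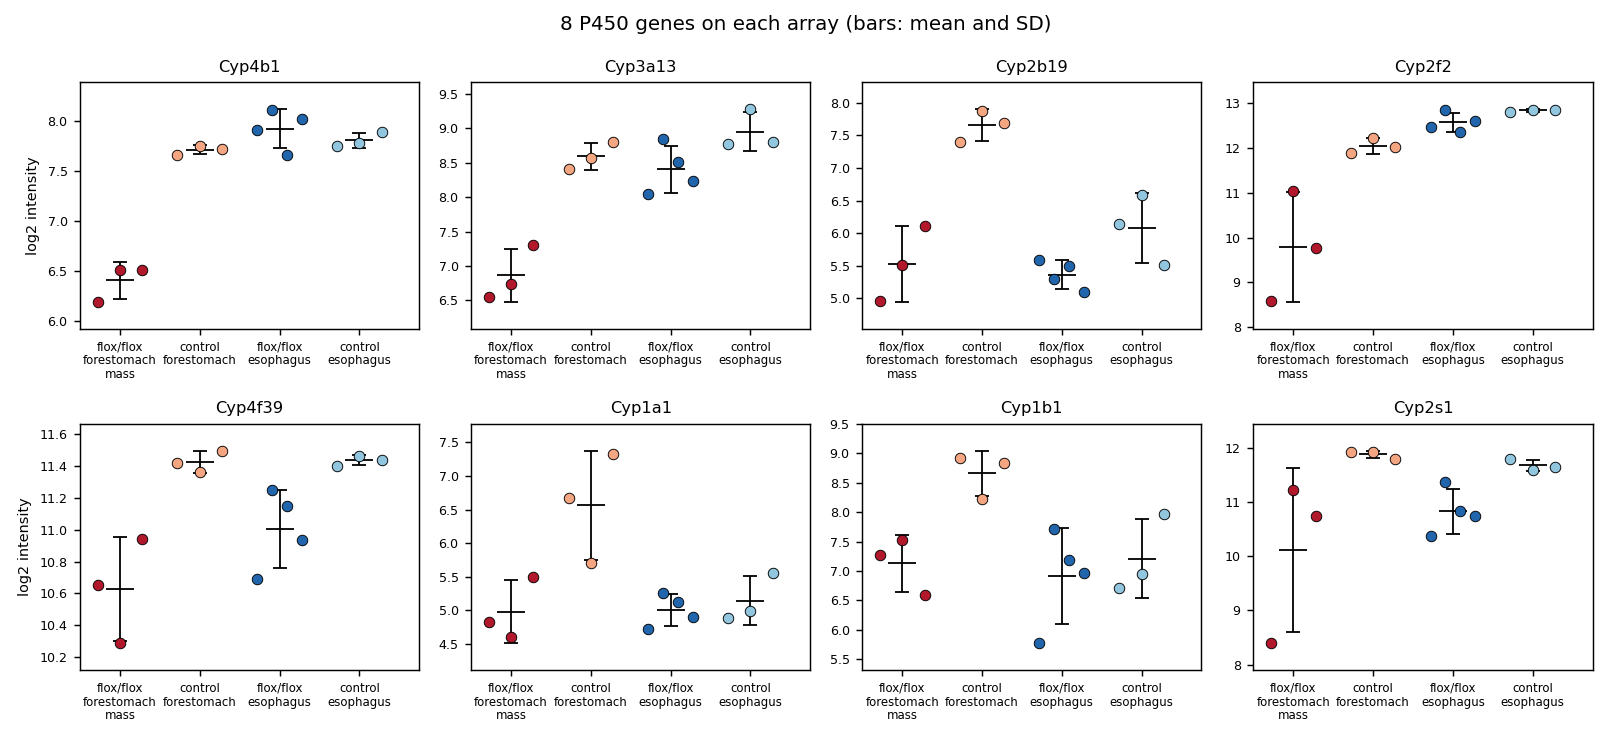
Log2 intensity of 8 genes (vertical axes, each with its own range) in the 4 groups; points are arrays and bars give mean and SD. In all 8 panels the 3 masses lie below the 3 control forestomach arrays, and the first 6 genes have an adjusted p under 0.05.

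Among genes that work with P450 enzymes, all those called in the masses were lower. Most called genes were: of all 15875 genes, 1700 were called there, 1334 of them lower (8.4% of all genes). Of 8 electron donors and partners tested, 3 fell: Pgrmc1 and Pgrmc2, haem-binding membrane partners (-1.20, SE 0.21, and -0.74, SE 0.12), and the ferredoxin Fdx1 (-0.48, SE 0.14, limma adjusted p = 0.0482). The list's median was -0.38, against 0.01 for all genes. Por was not analysed here. Of 10 genes of haem synthesis and breakdown, the oxygenase Hmox1 (-1.44, SE 0.31) and Fech, which inserts the iron (-0.47, SE 0.13, adjusted p = 0.0434), fell, and the median was -0.25. Of 20 regulators 1 fell, Ppara, the receptor that drives Cyp4a genes (-1.57, SE 0.29, adjusted p = 0.00723), and the median was -0.03.

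Enzymes that hydrolyse P450 epoxides gave 2 of the falls. Of 11 genes for arachidonate and epoxides, the microsomal hydrolase Ephx1 was 2.93-fold lower (-1.55, SE 0.17, adjusted p = 0.000736) and the soluble hydrolase Ephx2 5.07-fold lower (-2.34, SE 0.52, adjusted p = 0.0151); the median was -0.35. Of 15 genes in other P450 families, Cyp27a1 (-1.23, SE 0.23), Cyp39a1 (-0.69, SE 0.17) and Cyp26b1 (-0.87, SE 0.25, limma adjusted p = 0.0481) fell, and the median was 0.03. No gene of these 5 lists was called in the esophagus, where only 2 of all 15875 genes were (0.0126%). Unlike for members, it was not examined how calls in these lists depend on the processing.

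In control forestomach against control esophagus, Ephx2 was 7.03-fold higher (2.81, SE 0.52) and Ephx4, a related hydrolase, 2.64-fold lower (-1.40, SE 0.29). Higher as well were Cebpa (0.70, SE 0.16), Hmox2 (0.68, SE 0.17), Alas1, the first enzyme of haem synthesis (0.87, SE 0.20), and Pgrmc2 (0.79, SE 0.12). Close to the limit, with limma adjusted p of 0.0402 to 0.0481, Ppara (1.10, SE 0.29), Hmox1 (1.14, SE 0.31), Cyb5b (0.48, SE 0.13) and Cyp8b1 (0.97, SE 0.25) were higher too. Arnt, the partner of Ahr, was lower (-0.59, SE 0.13). Called higher were 2 of 8 electron donors, 2 of 20 regulators and 3 of 10 haem genes. So were 1 of 11 genes for arachidonate and epoxides and 1 of 15 other P450 genes. The medians of these lists, in that order, were 0.16, 0.02, 0.11, -0.12 and 0.06, against 0.02 for all genes. Of all genes, 3.51% were called higher there and 3.16% lower.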

How the data were processed

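The deposited table held intensity values on a linear scale for 34729 probe sets on 13 arrays of a mouse Affymetrix gene array, made with GCRMA per the submitters' processing notes; its version is not given in the sources used here. The annotation gave 1 gene for 21633 of them, several genes for 1306 and no gene for 11790. The deposited intensities were put on the log2 scale. Probe sets of 1 gene above log2 5 on at least 3 arrays entered, with the highest mean per gene. Median intensities per array were 65.3 to 72.4, and precision is limited by how many arrays there were. A level of 1 gene is not set against that of another, since probe sets differ.

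Group means were fitted with limma 3.58.1 in R 4.3.3 over all 15875 genes, with 9 residual degrees of freedom and Benjamini-Hochberg adjustment. The code was tested on simulated data. The control esophagus and forestomach came from the same animals, whose deviations from the group means correlated at 0.315 to 0.401, against -0.425 to 0.129 between animals, so the blocked fit is given where it changes a call. P-values set a difference against the spread pooled over these arrays. The main fit treats both arrays of a control animal as independent. Members, gene lists and tests were chosen with earlier results of these data known. Named in full are members called in a comparison and the member with the highest mean of each subfamily; from the other lists, genes called in a comparison. Promoters and gene order came from RefSeq (GRCm38.p6), where all 69 symbols were found; alignments used Biopython 1.88. The array's annotation can be old, and 7 probe sets shared by a member and another gene were left out. Alternatives covered the level limit, scaling, blocks, sex, array weights and each array left out. Sex was read from Xist and Eif2s3y. By these, masses 412 and 426, flox/flox esophagus 193, 313 and 335 and control animal 214 were female and the others male. The sexes were thus not balanced between genotypes.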

Additional observations from a re-analysis of the deposited data

Results flagged for a closer look

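Cyp4b1 differed between the 2 genotype comparisons by -1.42, as given above: it fell in the masses and had a difference of 0.12 in the esophagus.

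A probe set that reads both Cyp2a5 and Cyp2a4, left out of the members because it cannot separate them, was lower in control forestomach than in control esophagus (log2 difference -2.35, SE 0.57, adjusted p = 0.0289). It had 5.34, 4.74 and 4.90 in control forestomach 214, 216 and 217, against 6.48, 7.21 and 8.35 in control esophagus 216, 217 and 214. The masses had 4.66, 5.03 and 5.26, and flox/flox esophagus 5.16, 7.30, 5.95 and 7.35. Both genes encode enzymes of coumarin and steroid hydroxylation.

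Cyp2d10 had 5.31 in flox/flox esophagus 313, against 5.06 to 5.07 in the other 3 animals of the group. The gap to its neighbour was 0.968 of the group's range, above Dixon's limit for 4 samples. In 29 such groups 1 was found, and chance gives about 1 in 20.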

How the results depend on the processing

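Among 10 called changes, those of Cyp4b1, Cyp3a13 and Cyp2b19 in the masses held under every alternative tried, none of the 10 reversed its sign, and 14 others were called under some alternative. Among changes not called, those of Cyp2c65 and Cyp2c66 in the masses turned to -1.09 and -0.48 without mass 426, and with 1 array left out they ranged up to 1.98 and 0.70. The masses had 6 called members, 4 in a fit of those groups alone, and 5 to 10 when 1 array was left out (10 without mass 426). The esophagus count was 0 under every alternative. The difference between genotype comparisons had 1 called member, 0 without the 3 muscle-high arrays, and 1 to 3 with 1 array left out (2 without mass 426, 3 without mass 510).

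The control tissues had 3 called members, 8 with the animal as a random replicate block, 9 with the animal as a fixed block in the control arrays alone, 9 with array weights, 8 in a fit of those groups alone, 1 without the 3 muscle-high arrays, and 1 to 7 with 1 array left out: 1 without control forestomach 214 or 217, control esophagus 216 or 217, or flox/flox esophagus 335, 6 without mass 426 and 7 without mass 412. The blocked fit changed no call in the other comparisons. Between the control tissues, 6.67% of all genes were called in the main fit and 16.8% with the random block. The share was 14.8% with the fixed block and 3.02% without the 3 muscle-high arrays. In the masses it was 11.6% without mass 426 and 2.85% in a fit of those groups alone. For the other alternatives no such share is given here, so their counts of members are not set against all genes. At log2 6 and log2 7 in place of 5, 18 and 13 members passed in place of 29. Masses varied more (median SD over genes 0.25) than control forestomach (0.11), flox/flox esophagus (0.15) or control esophagus (0.14), so the shared spread may make the SE of mass comparisons too small. It may also make the SE of comparisons between other groups too large, as between the control tissues.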
